A study of Mus musculus with 12 samples.

Results

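The hypoxia-inducible factor (HIF) pathway genes described here are 10 named genes: Hif1a, Vegfa, Bnip3, Egln1, Egln3, Ndrg1, Adm, Kdm3a, P4ha1 and Higd1a. Each was taken as the probe set annotated with exactly that symbol, or the brightest such probe set, and all 10 were found among the 22180 genes measured. They were measured on 12 Affymetrix arrays of RNA from primary aortic smooth muscle cells of C57BL/6J mice, an inbred strain. The cells, at passage 3 to 4, were grown in DMEM with 10% fetal calf serum and either 0.3 g/l (1.7 mM) glucose or 4.5 g/l (25 mM) glucose, with 6 arrays per group numbered 1 to 6. The duration of culture is given as 14 days in the series text and as 1 week in the sample labels. No transgene, drug, gas mixture or osmotic control is named in the labels, and no oxygen level is given. The labels do not say whether the arrays came from separate cultures or animals, so the p-values cover only the variation from array to array, and part of that may be technical. The comparison asks how a low and a high glucose supply differ in their effect on these cells.

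HIF is a pair of subunits, an oxygen-regulated alpha subunit (HIF-1α, encoded by Hif1a, or HIF-2α, encoded by Epas1) and a constant beta subunit (Arnt). When oxygen is present, prolyl hydroxylases of the Egln family mark the alpha subunit for destruction by the von Hippel-Lindau ubiquitin ligase; when oxygen is short, the alpha subunit persists and switches on genes of blood vessel growth, glycolysis and mitochondrial quality control. Much of this control acts on the protein, which arrays of RNA do not measure. In vascular smooth muscle the pathway is known for driving the release of vascular endothelial growth factor and for remodelling of the vessel wall.

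HIF binds DNA at a short core, ACGTG or GCGTG, and the start regions of the members are shown because the members are textbook HIF pathway genes and 1 of them rose here. Windows of 300 bases, from 250 before to 50 after an annotated start, were available from RefSeq (build GRCm38.p6) for 9 of the 10 members, in 12 windows; Ndrg1 was not matched. Both cores were searched on both strands (CACGC and CACGT are the same cores read on the other strand, and CACGTG counts once per strand). A match was present in 9 of the 12 windows and in at least 1 window of all 9 members. For Vegfa the match was only in the window of a start downstream of its first listed start. Over all 32851 windows in the table, 19.6% held ACGTG, 32.4% held GCGTG and 43.8% held either. These shares are per window and stand beside the 9 of 12 windows. They do not apply to the count of members, since Vegfa and Kdm3a had more than 1 window. A match is a run of letters and was not tested for binding.

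The first line below gives the 250 bases before the start of Egln1 (chr8:124949255-124949504, minus strand), the member that rose, and the next those of Bnip3 (chr7:138909507-138909756, minus strand), which had the most matches of the members and did not pass the test. Both are written 5′ to 3′ on the gene's strand, with the cores in capitals.
Egln1: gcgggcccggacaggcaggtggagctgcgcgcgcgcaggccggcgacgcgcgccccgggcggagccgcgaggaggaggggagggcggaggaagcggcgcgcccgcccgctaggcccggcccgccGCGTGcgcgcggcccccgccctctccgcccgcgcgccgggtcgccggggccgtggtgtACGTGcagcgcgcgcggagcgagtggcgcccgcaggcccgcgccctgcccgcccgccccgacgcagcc
Bnip3: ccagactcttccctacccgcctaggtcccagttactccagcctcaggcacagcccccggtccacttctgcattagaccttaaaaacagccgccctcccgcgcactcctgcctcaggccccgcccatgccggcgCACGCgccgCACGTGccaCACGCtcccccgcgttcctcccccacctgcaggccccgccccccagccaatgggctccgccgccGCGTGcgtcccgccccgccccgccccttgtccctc

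For the other members, 1 core each is shown in capitals with 8 bases on either side, numbered by the first capital letter relative to the start base. They stand at position -70 in Hif1a, -229 in Egln3, -54 in Adm, -27 in Kdm3a, -126 in P4ha1 and -66 in Higd1a. In Vegfa the window at the first listed start (bases before it chr17:46032378-46032627, minus strand) held no core. The one shown stands at -211 of a second listed start (bases before it chr17:46025164-46025413). On this strand the second start lies downstream of the first, so the core shown is not upstream of the first start.
Hif1a: tgagagcaACGTGggctgggg
Vegfa: tgcgtgccCACGTcagagagc
Egln3: catctcagACGTGagatccag
Adm: aatctgacCACGCccaccgtc
Kdm3a: gaggctgtGCGTGtcttgtga
P4ha1: gcgtcctcGCGTGggccagcc
Higd1a: gcctgcgtGCGTGgcgttcgc

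Values are log2 units of the robust multi-array average (RMA) as the authors deposited them, so a difference of 1 is a doubling. A gene was called changed when its adjusted p in limma, corrected by Benjamini-Hochberg over all 22180 genes, was below 0.05. Over the whole array 15.5% of genes were called, 7.01% higher and 8.52% lower in 4.5 g/l, and the groups did not overlap in 6.4% of genes. Of all genes 3.9% were called with a change of at least 1.5-fold, and no member was. The array of 0.3 g/l replicate 4 stood apart from its group: the mean of 7 smooth muscle markers was 10.63 on it, 9.37 to 9.63 on the other 5 arrays of 0.3 g/l and 11.09 to 11.30 in 4.5 g/l. The members' results that rest on it, and the counts for the other genes, are given with and without it. The 4.5 g/l arrays also differed among themselves, the lower-numbered (replicates 1 to 3) from the higher-numbered (replicates 4 to 6). The mean of 10 endothelial markers was 7.62 to 7.76 on the lower-numbered and 6.95 to 7.01 on the higher-numbered, with 7.17 on 0.3 g/l replicate 4 and 7.68 to 7.73 on the other 5 arrays of 0.3 g/l. The brightest were the endothelial cadherin Cdh5, with group means of 11.10 and 10.51, and endomucin, Emcn, with 11.71 and 11.28. Pecam1 followed with 9.74 and 9.49. The rest of the 10 were dimmer, from 5.26 and 5.08 for Cldn5 to 7.15 and 6.96 for Tie1. Transcripts of some endothelial markers were thus measured beside those of smooth muscle. Of these 10 markers Emcn fell and none rose; without 0.3 g/l replicate 4, 3 fell. Macrophage markers had array means of 4.73 to 5.04, and the pan-leukocyte Ptprc lay at 3.29 and 3.36, within the dimmest 25% of genes (up to 4.20). In bulk samples, fewer cells of a type and less RNA per cell cannot be told apart.

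Between 0.3 and 4.5 g/l glucose, most of the 10 HIF pathway genes did not differ beyond the spread between arrays. One gene rose, the oxygen-sensing prolyl hydroxylase Egln1, which was 1.34-fold higher in 4.5 g/l. None of the 10 fell, although Vegfa was low on 3 of the 6 arrays of 4.5 g/l and Hif1a passed when 0.3 g/l replicate 4 was left out. Thus 1 of 10 members (10.0%) was called, against 15.5% of all genes. An unadjusted p under 0.05 in limma was reached by 2 of the 10 members and by 6112 of all 22180 genes. The exact permutation test called the same number, 1 member, against 8.99% of all genes. The median difference of the members was -0.04 on the log2 scale, and that of all genes -0.01. Of the members 6 had a negative and 4 a positive difference. The 95% interval of the difference lay within a 1.5-fold change either way for 9 of the 10; Egln3 was the exception. All 10 were brighter than the dimmest 25% of genes. With those dim genes left out, 23.8% of the remaining genes were called and still 1 member.

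**Figure D1:**
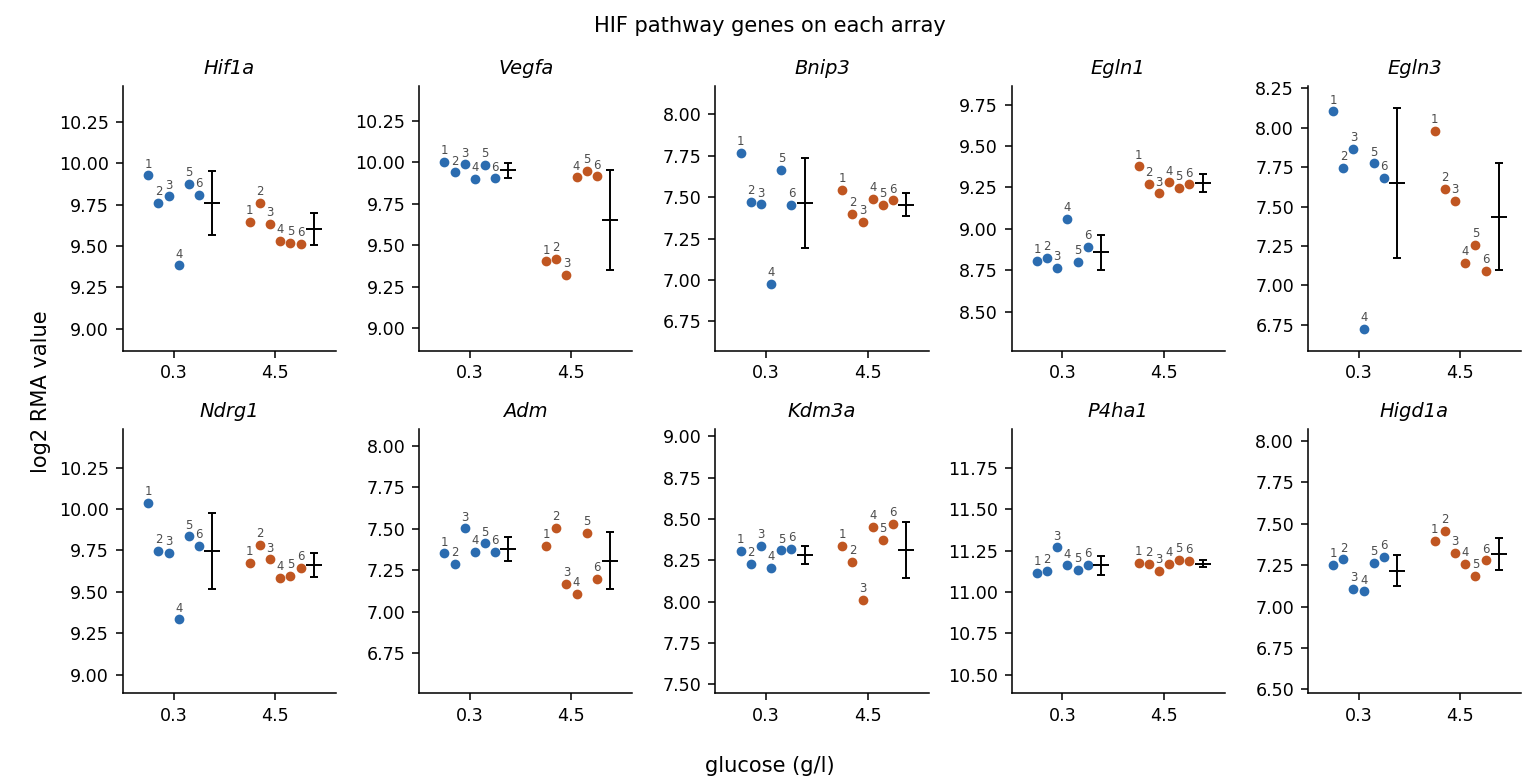
Log2 RMA values of the 10 members (y axis, at least 1.6 log2 units per panel) on each array at 0.3 and 4.5 g/l glucose (x axis), with points numbered by replicate and the black bar giving mean and SD of 6 arrays. The groups separate for Egln1, 0.3 g/l replicate 4 lies low for Hif1a, Bnip3, Egln3 and Ndrg1, and 4.5 g/l replicates 1 to 3 lie low for Vegfa.

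Of the oxygen sensors, Egln1 encodes PHD2, the main hydroxylase that keeps HIF-1α low when oxygen is present. In 0.3 g/l its log2 value was 8.76 at the lowest, 8.81 at the median and 9.06 at the highest, and in 4.5 g/l it was 9.21, 9.27 and 9.38. Every array of 4.5 g/l lay above every array of 0.3 g/l, whose highest was replicate 4. The mean rose from 8.86 ± 0.11 to 9.28 ± 0.06 (SD, n = 6), a log2 difference of 0.42 ± 0.06 (SE; limma adjusted p = 0.000675). The exact permutation test over 924 assignments gave p = 0.00216, the smallest it can give, and an adjusted p of 0.0338. Without 0.3 g/l replicate 4 the difference was 0.46 (limma adjusted p = 1.78e-05). It was 0.49 within replicates 1 to 3 and 0.35 within replicates 4 to 6, where it did not pass (limma adjusted p = 0.176); without 0.3 g/l replicate 4 it was 0.42 in the latter and passed (limma adjusted p = 0.0173).

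Egln3 encodes PHD3, a related hydroxylase that is itself a strongly HIF-induced gene. It had the widest spread of the members, from 6.73 on 0.3 g/l replicate 4 to 8.10 on 0.3 g/l replicate 1. The rest of the 0.3 g/l group lay between 7.68 and 8.10. The lower-numbered 4.5 g/l arrays lay at 7.54 to 7.98 and the higher-numbered at 7.09 to 7.26, so the groups overlapped. The difference was -0.21 ± 0.21 (SE; limma adjusted p = 0.583), and -0.40 without 0.3 g/l replicate 4 (limma adjusted p = 0.0711). Within replicates 4 to 6 it was -0.23 with that array and -0.56 without it, and only the latter passed (limma adjusted p = 0.0103). The lowest 4 values of Egln3 were on the same 4 arrays as the lowest 4 means of endothelial markers, 0.3 g/l replicate 4 with the higher-numbered 4.5 g/l arrays; the part of that RNA in the result was not tested.

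Hif1a itself, the oxygen-regulated subunit, lay between 9.38 and 9.93 in 0.3 g/l, with a median of 9.80, and between 9.51 and 9.76 in 4.5 g/l, with a median of 9.58. The lowest of all 12 values was that of 0.3 g/l replicate 4. The other 5 arrays of 0.3 g/l lay at 9.76 to 9.93. With all arrays the difference was -0.16 ± 0.09 (SE; limma adjusted p = 0.278). Without 0.3 g/l replicate 4 it was -0.23 and passed (limma adjusted p = 0.0125), so the call of this gene was decided by 1 array. The 4 lowest arrays were again 0.3 g/l replicate 4 with the higher-numbered 4.5 g/l arrays, which lay at 9.51 to 9.53. A dimmer second probe set annotated to Hif1a lay between 4.01 and 4.65 and differed by 0.03.

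Vegfa encodes vascular endothelial growth factor A, the HIF target through which hypoxic tissue recruits vessels. In 0.3 g/l it was tightly held between 9.90 and 10.00, replicate 4 included. In 4.5 g/l replicates 1, 2 and 3 gave 9.40, 9.42 and 9.32, and replicates 4, 5 and 6 gave 9.91, 9.95 and 9.92. The first 3 lay below every other array of the series, and the last 3 lay within the 0.3 g/l range. The mean over all arrays went from 9.95 ± 0.04 to 9.65 ± 0.30 (SD, n = 6), a difference of -0.30 ± 0.11 (SE) that did not pass (limma adjusted p = 0.0962). Within replicates 1 to 3 the difference was -0.60 (limma adjusted p = 0.00195), and within replicates 4 to 6 it was -0.01 (limma adjusted p = 0.983), or -0.02 without 0.3 g/l replicate 4. With the number range as a term in the model the overall difference passed (limma adjusted p = 0.0465).

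The difference in Vegfa between the number ranges was tested as an interaction with glucose, a test chosen after the values were seen, on a division that was itself first seen in these data. The glucose difference was 0.59 larger, that is less negative, in replicates 4 to 6 (limma adjusted p = 0.0853 over all genes), and 0.58 without 0.3 g/l replicate 4 (limma adjusted p = 0.0192). None of the other 9 members passed this test either way, with limma adjusted p-values of 0.452 or more without that array. The endothelial marker means were low on 0.3 g/l replicate 4 and on the higher-numbered 4.5 g/l arrays, where Vegfa lay at 9.90 to 9.95. On the arrays with higher marker means Vegfa was not at 1 level. It lay at 9.90 to 10.00 on the other arrays of 0.3 g/l and at 9.32 to 9.42 on the lower-numbered 4.5 g/l arrays. The mean of 6 fibroblast markers was 5.48 to 5.54 on the lower-numbered 4.5 g/l arrays, where Vegfa was low. It was 5.10 to 5.21 on the higher-numbered 4.5 g/l arrays and 5.11 to 5.34 in 0.3 g/l. Not every marker of the 6 followed this: Pdgfra lay at 7.12 to 7.45 on the lower-numbered and at 7.36 to 7.74 on the higher-numbered. The part of endothelial or fibroblast RNA in the Vegfa values was not tested.

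**Figure D2:**
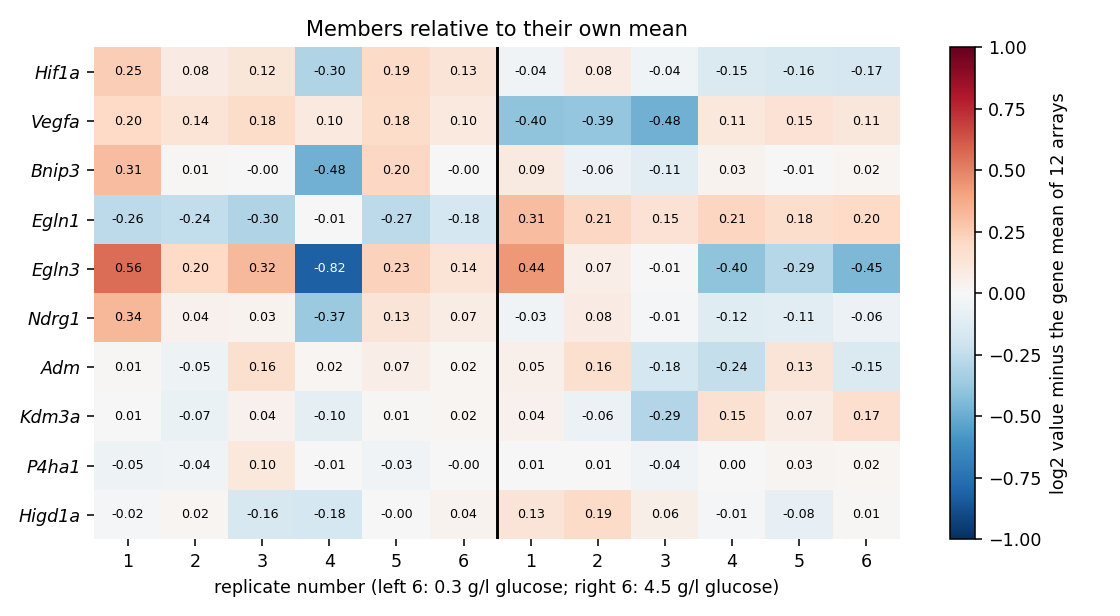
Each cell is the log2 value of a member (rows) on an array (columns, 0.3 g/l left and 4.5 g/l right of the line, by replicate number) minus that gene's mean over 12 arrays, printed in the cell and coloured from blue (lower) to red (higher). The column of 0.3 g/l replicate 4 is blue for Hif1a, Bnip3, Egln3 and Ndrg1, the row of Vegfa is blue for 4.5 g/l replicates 1 to 3, and the row of Egln1 divides by glucose.

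Adm encodes adrenomedullin, a peptide that relaxes vessels and is induced by HIF. Its values were 7.29 to 7.50 in 0.3 g/l and 7.11 to 7.51 in 4.5 g/l, so the second range held the first. The difference was -0.07 ± 0.08 (SE; limma adjusted p = 0.636), with a 95% interval from -0.24 to 0.10. The 4.5 g/l arrays were spread over 0.40 log2 units, and 0.3 g/l replicate 4 lay within its group at 7.36.

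Bnip3 encodes a mitochondrial protein that marks mitochondria for removal. Its mean was 7.46 ± 0.27 in 0.3 g/l and 7.45 ± 0.07 in 4.5 g/l (SD, n = 6; difference -0.01 ± 0.11 SE, limma adjusted p = 0.968). The wide spread of 0.3 g/l ran from 6.98 on replicate 4 to 7.77 on replicate 1, and the 4.5 g/l arrays lay between 7.35 and 7.55. Higd1a, a mitochondrial inner membrane protein that acts on the respiratory chain, lay at 7.09 to 7.30 in 0.3 g/l and 7.19 to 7.46 in 4.5 g/l. Its difference was 0.10 ± 0.07 (SE; limma adjusted p = 0.367), and 0.18 within replicates 1 to 3 and 0.02 within replicates 4 to 6, neither of which passed.

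Ndrg1, a stress-responsive gene induced by HIF and by other signals, lay between 9.33 and 10.04 in 0.3 g/l and between 9.58 and 9.78 in 4.5 g/l. The extremes were again 0.3 g/l replicates 4 and 1. The difference was -0.08 ± 0.10 (SE; limma adjusted p = 0.659), or -0.16 without 0.3 g/l replicate 4. Its second probe set lay between 4.74 and 5.24.

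Kdm3a encodes an oxygen-dependent demethylase of histone H3 lysine 9, and its values were 8.20 to 8.34 in 0.3 g/l. In 4.5 g/l replicate 3 was lowest at 8.01 and replicate 6 highest at 8.47, so the second range held the first (difference 0.03 ± 0.08 SE, limma adjusted p = 0.864). P4ha1, the catalytic subunit of the prolyl hydroxylase that stabilises collagen, was the steadiest member. It lay at 11.11 to 11.27 in 0.3 g/l and 11.13 to 11.19 in 4.5 g/l, with a difference of 0.01 ± 0.05 (SE; limma adjusted p = 0.938) and a 95% interval from -0.10 to 0.12.

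On 0.3 g/l replicate 4 the members shifted by unlike amounts. Hif1a, Bnip3, Egln3, Ndrg1 and Higd1a (5 of 10) had their lowest value of all 12 arrays there, as did 10.9% of all genes. Relative to the mean of the other 5 arrays of its group, that array was lower by 1.11 in log2 for Egln3 (mean 7.83), 0.58 for Bnip3, 0.49 for Ndrg1 and 0.45 for Hif1a; the shift was -0.15 for Higd1a. For Egln1 it was 0.24 higher, towards the 4.5 g/l arrays, and for P4ha1, Adm, Vegfa and Kdm3a the shift was between -0.10 and 0.00. The 5 genes with their lowest value of all 12 arrays there by definition also lay below every 4.5 g/l array. For Higd1a the margin was small, at 7.09 against 7.11 on 0.3 g/l replicate 3 and 7.19 on the lowest 4.5 g/l array. Whether the shifts on 0.3 g/l replicate 4 reflect the culture or the array was not tested.

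**Figure D3:**
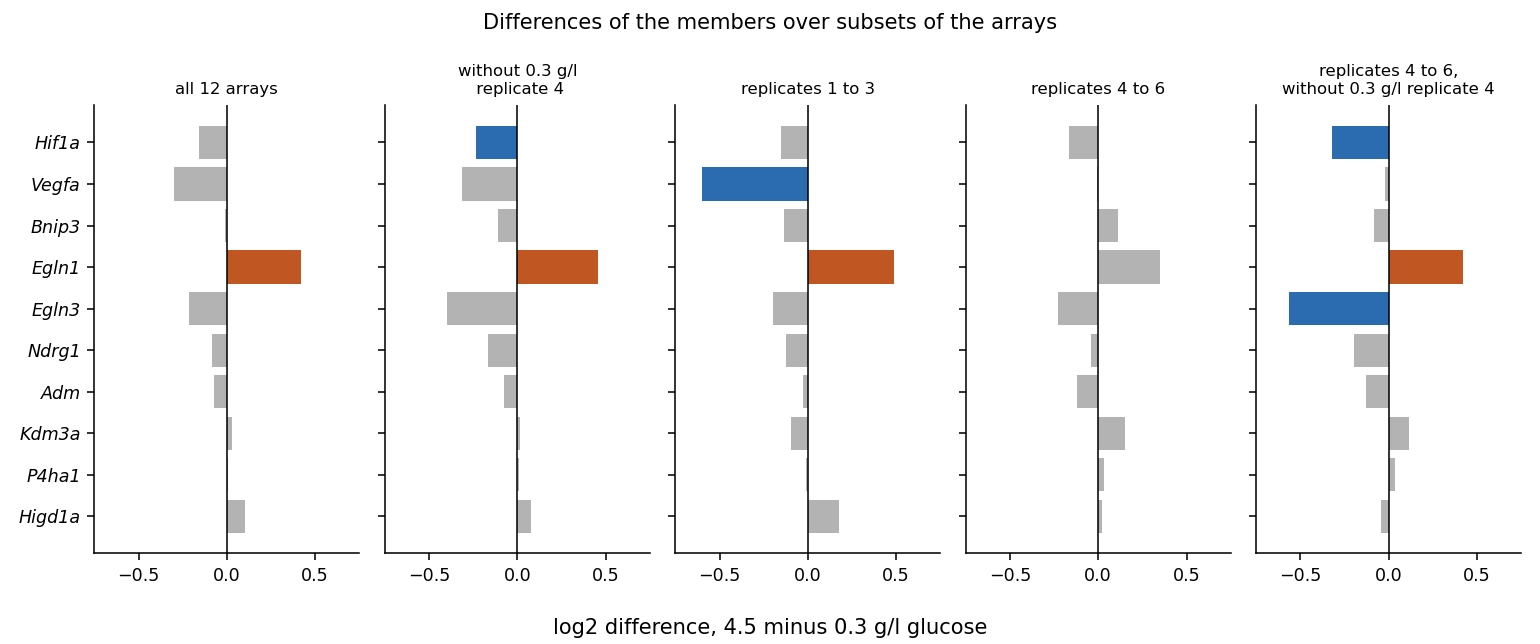
Bars give the log2 difference of each member, 4.5 minus 0.3 g/l glucose (x axis), over all 12 arrays and over 4 subsets of them; orange and blue bars passed limma's adjusted p of 0.05 (higher and lower) and grey bars did not. Egln1 was positive in every panel, Vegfa reached -0.60 in replicates 1 to 3 and about 0 in replicates 4 to 6, and Hif1a and Egln3 passed only where 0.3 g/l replicate 4 was left out.

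The other genes of the pathway were read from lists of 100 further genes, grouped by role and written with earlier results of these data known; 90 had a probe set annotated to that symbol alone. Of these 13 rose and 14 fell (30.0% called, against 15.5% of all genes), and without 0.3 g/l replicate 4 the counts were 19 and 25, in a setting that called 23.9% of all genes. The exact permutation test called 13 of the 27 genes and did not call the other 14, which were Cited2, Cul2, Nrp2, Calcrl, Edn1, Pdgfb, Mif, Lonp1, Plod2, Loxl4, Slc16a3, Ero1a, Hmox1 and Vegfb (adjusted p of 0.0584 to 0.084). The median difference of the 90 was 0.02. The share of 15.5% includes the dimmest genes. With the dimmest 25% of genes left out, 23.8% of the remaining genes were called. In that setting 15 of the listed pathway genes rose and 18 fell.

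Among 7 HIF subunits and coactivators, 2 rose and 2 fell (median difference 0.05). The other alpha subunit, Epas1 (HIF-2α), rose where Hif1a did not. It lay between 9.66 and 10.26 in 0.3 g/l, with replicate 4 the highest, and between 10.61 and 10.86 in 4.5 g/l, without overlap. Its difference was 0.88 ± 0.10 (SE; limma adjusted p = 0.000126), which is 1.83-fold. The beta subunit Arnt rose 1.13-fold (limma adjusted p = 0.0462), a call that was lost on leaving out any one array but 0.3 g/l replicate 4 and 4.5 g/l replicate 2 (adjusted p of 0.0507 to 0.103), with median centring (0.113) and with the replicate number as a block (0.110). Its relative Arnt2, which is best known from neurons, fell 1.47-fold from 8.20 to 7.64, without overlap. Cited2, a HIF-induced protein that competes with HIF for its coactivators, fell 1.32-fold. The coactivators Ep300 and Crebbp differed by 0.14 and 0.05, and Hif3a by -0.03; none of these passed. Ep300 passed once 0.3 g/l replicate 4 was left out (0.21, limma adjusted p = 0.0246), for counts of 3 and 2.

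In oxygen sensing and HIF turnover, 1 of 9 fell and none rose (median -0.09). In limma 3 of the 9 had an unadjusted p under 0.05, as did 6112 of all 22180 genes. The gene that fell was Cul2, the scaffold of the von Hippel-Lindau ubiquitin ligase. It lay at 9.27 to 9.51 in 0.3 g/l other than replicate 4, at 8.83 on replicate 4 and at 8.75 to 8.96 in 4.5 g/l (difference -0.46 ± 0.10 SE, limma adjusted p = 0.00652). The exact permutation test did not call it (adjusted p = 0.0584). Vhl, the substrate receptor of that ligase, differed by 0.09 and the ligase adaptors Eloc and Elob by 0.16 and 0.05. The third hydroxylase Egln2 differed by -0.11, the asparagine hydroxylase Hif1an by -0.18, and the ubiquitin ligase Siah2, which degrades Egln proteins, by -0.30 (limma adjusted p = 0.0586). None of these passed, so of the 3 Egln genes only Egln1 was called; differences between the 3 were not tested.

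Of 8 receptor genes for the VEGF and adrenomedullin ligands, 1 rose and 2 fell (median -0.01). Nrp2, a neuropilin that binds VEGF and semaphorins, was 5.56 to 5.88 in 0.3 g/l other than replicate 4, 7.32 on replicate 4 and 7.22 to 7.40 in 4.5 g/l. The array of replicate 4 thus had the 4.5 g/l level, and the difference was 1.29 ± 0.23 (SE; limma adjusted p = 0.00228). The exact permutation test called neither Nrp2 nor Calcrl (adjusted p = 0.0725 for each). Calcrl, the core of the adrenomedullin receptor, fell 1.76-fold, from 7.63 ± 0.45 to 6.81 ± 0.23 (SD, n = 6), and its partner Ramp2 fell 1.23-fold. Both are strongly expressed by endothelial cells, whose marker means were lowest on 4.5 g/l replicates 4 to 6. Calcrl lay at 6.86 to 7.10 on the lower-numbered 4.5 g/l arrays and at 6.54 to 6.79 on the higher-numbered, against 7.49 to 7.97 on the 0.3 g/l arrays other than replicate 4. The part of endothelial RNA in these results was not tested. Ramp2 did not pass within replicates 1 to 3 (-0.18, limma adjusted p = 0.232), and its call was lost on leaving out 0.3 g/l replicate 1, 2 or 5 or 4.5 g/l replicate 1, 5 or 6 (limma adjusted p of 0.0523 to 0.0712). The VEGF receptors Flt1, Kdr and Flt4 differed by 0.09, -0.11 and -0.48, and Ramp3 by 0.09, without passing. Without 0.3 g/l replicate 4, 2 of the 8 rose and 3 fell, with Flt4 among the latter (-0.60, limma adjusted p = 0.0215).

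**Figure D4:**
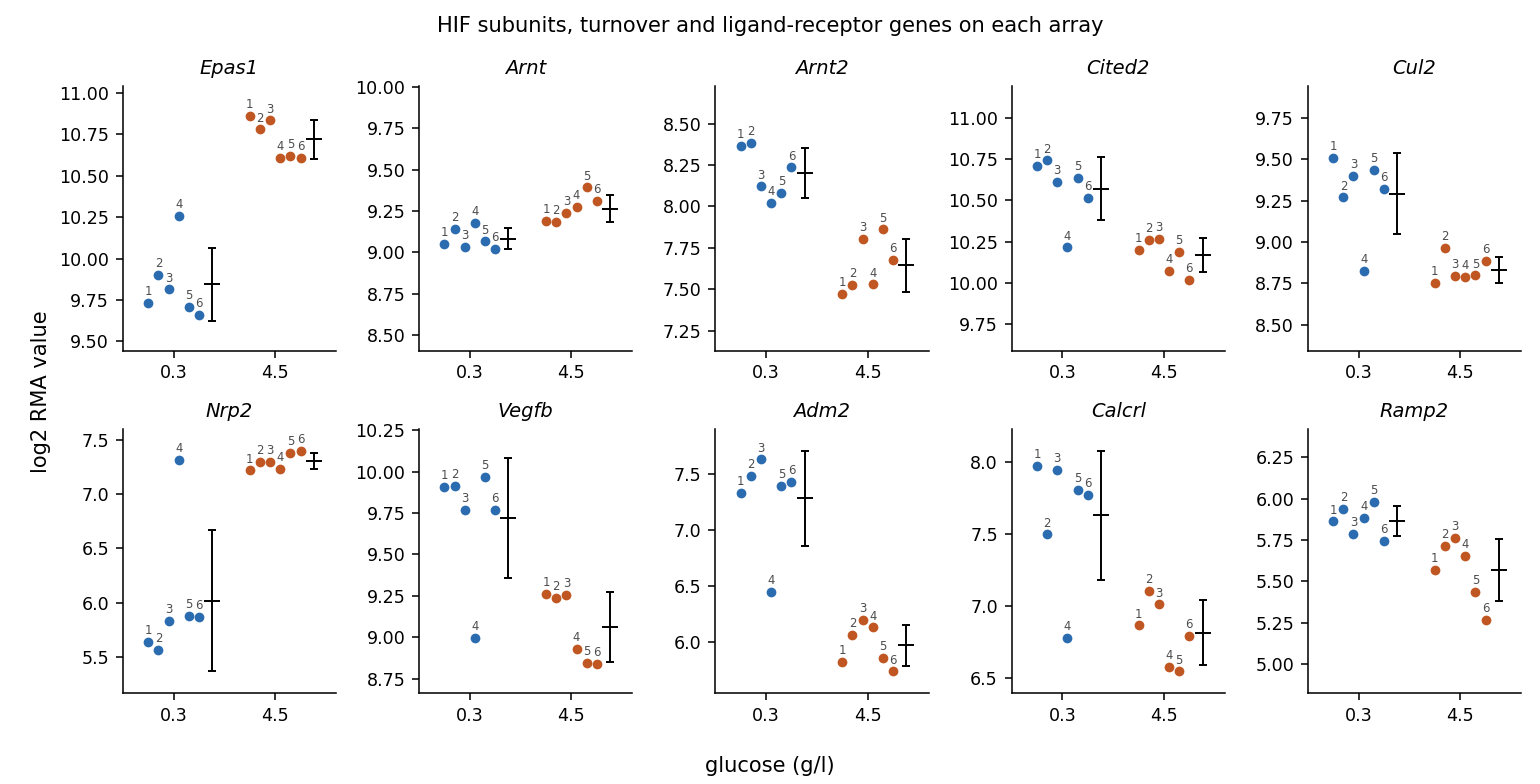
Log2 RMA values (y axis, at least 1.6 log2 units per panel) of 10 called genes of the pathway that are not among the members, on each array at 0.3 and 4.5 g/l glucose (x axis), with points numbered by replicate and the black bar giving mean and SD of 6 arrays. Epas1, Arnt2 and Adm2 separate the groups, and 0.3 g/l replicate 4 lies among or near the 4.5 g/l arrays for Nrp2, Cul2, Vegfb and Calcrl. For Arnt the groups all but touch, at 9.179 for the highest 0.3 g/l array and 9.183 for the lowest 4.5 g/l array.

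Of 12 measured family relatives of the members 1 rose and 2 fell. Adm2, an adrenomedullin-like peptide that acts on the same receptors as Adm, was 7.33 to 7.63 in 0.3 g/l other than replicate 4, 6.45 on replicate 4 and 5.74 to 6.20 in 4.5 g/l. The groups did not overlap, and the gene fell 2.49-fold (limma adjusted p = 0.000273), the largest change among the members' relatives. Vegfb, a VEGF that is not a classical hypoxia target, fell 1.58-fold (limma adjusted p = 0.00987), but was not called by the exact permutation test (adjusted p = 0.0652). It lay at 9.24 to 9.26 on the lower-numbered 4.5 g/l arrays and 8.84 to 8.93 on the higher-numbered, an order opposite to that of Vegfa. Ndrg2, the relative of Ndrg1, rose 1.92-fold from 8.24 ± 0.22 to 9.18 ± 0.34 (SD, n = 6; limma adjusted p = 0.00106). Kdm3b and Jmjd1c, the relatives of Kdm3a, differed by 0.11 and 0.05, Vegfc by -0.07, Vegfd by 0.05, Ndrg3 by -0.06 and Ndrg4 by 0.04. P4ha3 lay at 10.99 on 0.3 g/l replicate 4, at 9.19 to 9.77 on the other arrays of that group and at 10.31 to 10.78 in 4.5 g/l. Its difference was 0.75 (limma adjusted p = 0.0529) with that array and 1.01 (limma adjusted p = 2e-05) without it, so 1 array decided this call; without it 2 of the 12 relatives rose.

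HIF target genes outside the members moved in both directions. Of 10 secreted targets 2 rose and 2 fell: endothelin, Edn1, rose 1.54-fold and Pdgfb 1.54-fold, while Stc2 fell 1.62-fold and Mif 1.23-fold. Pdgfb lay at 7.66 to 7.74 on the lower-numbered 4.5 g/l arrays and at 6.73 to 6.96 on the higher-numbered, against 6.32 to 6.84 in 0.3 g/l. Without 0.3 g/l replicate 4 it did not pass within replicates 4 to 6 (0.14, limma adjusted p = 0.473). Over all arrays its call was lost on leaving out 0.3 g/l replicate 1, 2 or 5 or any lower-numbered 4.5 g/l array (limma adjusted p of 0.052 to 0.0655). The call of Mif was lost without any one 0.3 g/l array but replicate 4, without 4.5 g/l replicate 5 (0.0537 to 0.0649) and with the replicate number as a block (0.0514). The secreted lipase inhibitor Angptl4 differed by -0.44 and placental growth factor, Pgf, by -0.82, both with wide spreads, and did not pass. Angptl4 passed once 0.3 g/l replicate 4 was left out (-0.57, limma adjusted p = 0.0385), for counts of 2 and 3.

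Of 6 mitochondrial targets, Fam162a, a HIF-induced mitochondrial protein, rose 1.43-fold without overlap (limma adjusted p = 0.00028), and the protease Lonp1 fell 2.26-fold. On 0.3 g/l replicate 4 Lonp1 lay at 7.42, below every 4.5 g/l array, and the exact permutation test did not call it (adjusted p = 0.084). Without that array 1 of the 6 rose and 2 fell. Pdk1, the kinase through which HIF restrains pyruvate entry, differed by 0.12 and did not pass. Of 3 chromatin targets Kdm5b, a demethylase of histone H3 lysine 4, rose 1.38-fold, and Kdm4b and Kdm4c differed by -0.01 and -0.07. Of 5 collagen-modifying targets the lysyl hydroxylase Plod2 rose 1.24-fold and Loxl4 fell 1.37-fold; P4ha2, the relative of P4ha1, differed by -0.12 and did not pass. Without 0.3 g/l replicate 4, 3 of the 5 rose and 2 fell, with P4ha2 among the latter (-0.25, limma adjusted p = 0.00368). The call of Plod2 was lost without 0.3 g/l replicate 1, 2, 5 or 6 (limma adjusted p of 0.0508 to 0.0587). That of Loxl4 was lost without 0.3 g/l replicate 1, 3, 5 or 6 or 4.5 g/l replicate 3 (0.0503 to 0.0594) and with the replicate number as a block (0.0607).

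Of 19 glycolysis targets 4 rose (Pfkp, Pfkl, Ldha and the lactate exporter Slc16a3) and 1 fell (Hk2, 2.12-fold), with a median difference of 0.03. The counts were 5 and 4 without 0.3 g/l replicate 4. The call of Slc16a3 was lost on leaving out 7 of the 12 arrays singly, namely 0.3 g/l replicates 1, 3, 5 and 6 and 4.5 g/l replicates 1, 2 and 4 (limma adjusted p of 0.0552 to 0.0701), and with median centring (0.0676). Phosphoglycerate kinase, Pgk1, differed by -0.03 and Gapdh by 0.03. Of 11 other targets 2 fell and none rose. In limma 4 of the 11 had an unadjusted p under 0.05, as did 6112 of all 22180 genes. Without 0.3 g/l replicate 4, 6 of the 11 fell. With all arrays heme oxygenase, Hmox1, fell 2.63-fold and the disulfide-forming Ero1a 1.48-fold, and the exact permutation test called neither (adjusted p of 0.0584 and 0.084). Both lay at the 4.5 g/l level or below on 0.3 g/l replicate 4, and the call of Ero1a was lost without 0.3 g/l replicate 1, 2, 3 or 5 (limma adjusted p of 0.0503 to 0.0539). Carbonic anhydrase 9, Car9, one of the most HIF-dependent genes known, lay at 5.57 and 5.58 (difference 0.01), and Ddit4 differed by 0.11; neither passed.

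**Figure D5:**
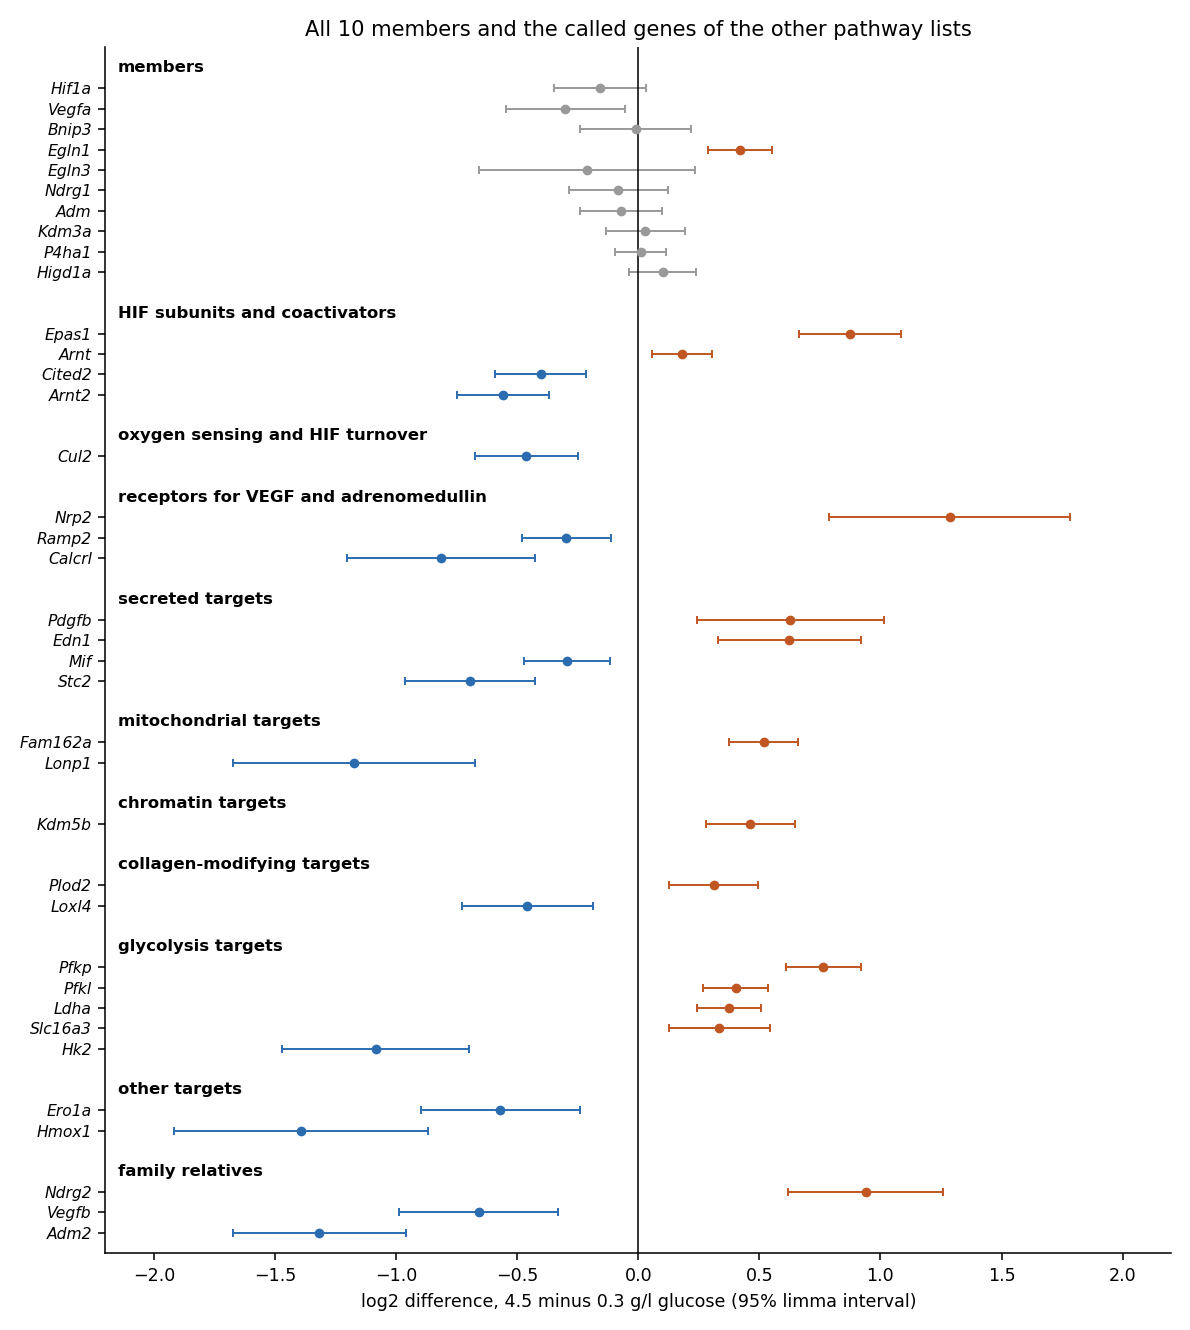
Log2 difference, 4.5 minus 0.3 g/l glucose (x axis), with its 95% limma interval, for the 10 members and for the called genes of the other lists by role (rows); orange marks genes called higher, blue genes called lower and grey genes not called. Of the members Egln1 is coloured, and the called genes of most other roles fall on both sides of 0.

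The genes whose pattern over the 12 arrays was most like that of each member were read among 14509 named genes, as a description. For Egln1 these were the cleavage furrow protein Anln (Pearson correlation 0.992), Igsf9b (0.991) and the potassium channel subunit Kcnmb1 (0.988), all of which were higher in 4.5 g/l. For Vegfa they were the elongation factor Eef2 (0.972), Pus7l (0.964) and Amz2 (0.959), and for Hif1a the lysosomal enzyme Gla (0.981), Cyp4v3 (0.979) and Sgpl1 (0.976). For Egln3 they were Uchl1 (0.954), Itpripl2 (0.953) and Sema6b (0.947). For Ndrg1 they were Tshz1, Mmgt1 and Psap, at 0.961 to 0.963, and for Bnip3 they were Smg5, Vps29 and Usp48, at 0.924 to 0.937. The last 3 rested in part on 0.3 g/l replicate 4, without which they were 0.772 to 0.846. The closest genes to Adm (G0s2, 0.906), Kdm3a (Nsun6, 0.903), Higd1a (Cpt1a, 0.881) and P4ha1 (Cd300a, 0.817) were less alike. No member was among the 3 closest genes of another.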

How the data were processed

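Affymetrix mouse arrays measured RNA of 12 samples, 6 for each glucose level. The authors deposited log2 values per probe set, made with Affymetrix Expression Console and RMA per the submitters' processing notes; versions and genome build are not given in the sources used here. RMA normalizes arrays to like distributions, so a general rise or fall in RNA is lost. Of 41345 probe sets, 23521 had 1 gene symbol in the platform annotation and 1814 had several; each gene was represented by its brightest probe set. Groups followed the sample titles. The comparison used limma 3.58.1 under R 4.3.3 (lmFit, eBayes, two-sided, no block), Benjamini-Hochberg adjustment over 22180 genes and a threshold of 0.05; the fit was tested on simulated data. A two-sided exact permutation test of the mean difference over all 924 assignments was run beside it. Same-numbered arrays did not deviate together (correlations from -0.05 to 0.17), so replicate numbers were not treated as pairs. Named genes were the 10 members, for each role list at most the 4 called genes with the largest difference, and all measured family relatives. For each member the 3 genes with the highest Pearson correlation were also named. Slc16a3, outside the largest 4 of the glycolysis list, was named besides. Other genes named as not called were chosen after their values were seen. Members, lists and the division into replicates 1 to 3 and 4 to 6 were chosen with earlier results of these data known. Precision is limited by the number of arrays (median SE 0.0931). Figures were drawn with matplotlib 3.10.9.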

Additional observations from a re-analysis of the deposited data

Results flagged for a closer look

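Among the 10 members and the 27 called genes of the other lists, the lowest or highest array was tested in each group of 6 for standing apart from the others (Dixon's test at 95%). Of 74 groups 15 had such an array, where chance gives about 1 in 20, and in 14 of the 15 it was 0.3 g/l replicate 4. Among the members that array was low for Hif1a (9.38) and Egln3 (6.73), and 0.3 g/l replicate 3 was high for P4ha1 (11.27). Among the other genes 0.3 g/l replicate 4 was low for Adm2 (6.45), Cul2 (8.83), Ero1a (10.61), Hk2 (7.20), Hmox1 (9.66), Lonp1 (7.42), Loxl4 (6.54), Mif (10.45) and Vegfb (9.00), and high for Edn1 (10.42), Kdm5b (8.94) and Nrp2 (7.32). The part of the culture or of the array in this pattern was not tested.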

How the results depend on the processing

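Egln1 kept its direction under all alternatives run and passed under all but replicates 4 to 6 alone, where 0 members were called higher. Members called lower numbered 2 with array weights (Hif1a and Vegfa), 1 with the number range as a term (3887 of all genes called either way), 1 within replicates 1 to 3 (2900), 2 within replicates 4 to 6 without 0.3 g/l replicate 4 (3435), and 0 to 1 when 1 array was left out, the 1 being Hif1a without 0.3 g/l replicate 4 (5295). The replicate number as a block called 3130 genes and changed no member's call. All genes called numbered 5419 with array weights (2347 higher, 3072 lower), 1993 with the exact permutation test (1028 and 965), 30 within replicates 4 to 6 (21 and 9) and 2514 to 5295 with 1 array left out (1202 to 2288 higher, 1303 to 3007 lower). Other pathway genes called lower numbered 25 with array weights, 5 with the permutation test and 0 within replicates 4 to 6, where also 0 were higher; with 1 array left out, 9 to 19 were higher and 10 to 25 lower. Differences near 0 changed sign. For Bnip3 they were 0.00999 with quantile normalization, 0.0061 with cyclic loess and 0.11 within replicates 4 to 6, and -0.109 to 0.0492 with 1 array left out. For Kdm3a they were -0.0143 with median centring and -0.0944 within replicates 1 to 3, and -0.00158 to 0.0901 with 1 array left out. For P4ha1 they were -0.0343 and -0.0125 in those settings, and -0.000163 to 0.031 with 1 array left out. For Higd1a the value was -0.0422 within replicates 4 to 6 without 0.3 g/l replicate 4. The subsets have fewer arrays; the cause of the other changes was not tested.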
